A study of Mus musculus with 82 samples.

Results

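Sites that the lists of V5-tagged Eomes and of the Eomes-VP16 fusion shared, and that the lists of both GFP-tagged proteins lacked, are described here. They were selected on overlap between deposited peak lists: they are peaks of the EoV5 list on assembled chromosomes, with repeated entries dropped, that overlapped a peak of the EoVP16 list by at least 1 bp and no peak of the EoGFP or BraGFP list. The rule gave 3103 of 38193 EoV5 peaks, or 8.12%. The members were thus chosen by the same lists that give their heights, so their heights and overlaps are given as a description and no test was made on them. Their position relative to genes and chromosomes did not enter the rule.

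Of the study's 82 mouse libraries (66 for RNA, 12 for ChIP and 4 for ATAC), those behind 4 peak lists are used here. All 4 come from dKO cells, which lack Eomes and Brachyury and are A2lox.Cre embryonic stem cells grown as embryoid bodies to day 5, with activin A at 30 ng/ml and with doxycycline to switch on 1 inserted construct. EoGFP and BraGFP are Eomes and Brachyury carrying GFP, and each list stands for 2 libraries. V5-tagged Eomes (EoV5) and the fusion of Eomes with the activation domain of VP16 (EoVP16) were each profiled in 1 library. The V5 and VP16 libraries were pulled down with the same lot of anti-V5 antibody and both GFP constructs with anti-GFP, so the rule divides the lists along the antibody. What belongs to the antibody, the tag, the line or the level of the induced protein cannot be told apart with these lists. Whether the lines are single clones is not given in the sources used here. The cells with construct but no doxycycline, and the input, were not used here.

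The lists held 38193 peaks for EoV5, 36203 for EoVP16, 30129 for EoGFP and 27588 for BraGFP. The deposited names of the files state a minimum pileup of 60, 36, 120 and 40 fragments in the same order. Pileup is the number of fragments stacked over the summit and is called height below. The EoV5 and EoVP16 lists give it for each peak, and the EoGFP and BraGFP lists give positions only. With 1 list per construct there are no replicates and no test over samples. Intervals are 95% intervals (Wilson for a share, Newcombe for a difference of shares, exact Poisson for a height) and cover counting error only. The sequencing depth is not given by the lists, so heights are compared only within a list or as a ratio within the same pair of lists.

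Eomes and Brachyury are T-box transcription factors that bind DNA through a shared type of domain and are known for their roles in the primitive streak, where mesoderm and definitive endoderm form. VP16 is a strong viral activation domain, and joining it to a DNA-binding protein is a common way to turn that protein into a constant activator. A ChIP peak marks where crosslinked protein was recovered on DNA, at promoters as well as at distant enhancers.

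Promoter sequence was available for genes, not for peaks, so the promoters of those named genes that a site overlapped are shown, tallest EoV5 peak first. Each belongs to an annotated start, which need not be the outermost end of the gene. They are the 250 bases before the annotated start, 5′ to 3′ on the strand of the gene, from RefSeq on GRCm38.p6, and capitals mark the T-box core (GGTGTG or CACACC) and the GC box (GGGCGG or CCGCCC). The 5 windows lie at chr6:125008876-125009125 (Zfp384, plus strand), chr2:112571363-112571612 (Aven, plus strand), chr6:52313248-52313497 (Evx1, plus strand), chr13:118714449-118714698 (Fgf10, plus strand) and chr15:103366792-103367041 (Itga5, minus strand).
Zfp384: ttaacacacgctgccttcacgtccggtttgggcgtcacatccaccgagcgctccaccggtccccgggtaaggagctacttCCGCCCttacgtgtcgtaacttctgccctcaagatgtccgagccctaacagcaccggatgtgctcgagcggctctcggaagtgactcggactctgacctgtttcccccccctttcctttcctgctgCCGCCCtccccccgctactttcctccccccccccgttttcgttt
Aven: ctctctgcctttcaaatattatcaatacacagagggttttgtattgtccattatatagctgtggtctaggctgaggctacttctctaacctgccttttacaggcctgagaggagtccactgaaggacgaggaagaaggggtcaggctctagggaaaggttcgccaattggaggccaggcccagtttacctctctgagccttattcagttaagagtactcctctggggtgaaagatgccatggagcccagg
Evx1: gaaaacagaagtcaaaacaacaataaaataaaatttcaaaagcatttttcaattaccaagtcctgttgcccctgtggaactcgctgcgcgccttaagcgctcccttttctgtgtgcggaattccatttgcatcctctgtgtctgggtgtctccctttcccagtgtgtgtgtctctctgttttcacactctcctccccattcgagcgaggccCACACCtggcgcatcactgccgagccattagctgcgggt
Fgf10: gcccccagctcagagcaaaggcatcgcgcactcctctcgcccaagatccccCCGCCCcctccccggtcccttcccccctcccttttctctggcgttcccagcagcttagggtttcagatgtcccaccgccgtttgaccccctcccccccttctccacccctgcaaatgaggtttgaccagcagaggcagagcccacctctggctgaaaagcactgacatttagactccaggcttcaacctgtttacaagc
Itga5: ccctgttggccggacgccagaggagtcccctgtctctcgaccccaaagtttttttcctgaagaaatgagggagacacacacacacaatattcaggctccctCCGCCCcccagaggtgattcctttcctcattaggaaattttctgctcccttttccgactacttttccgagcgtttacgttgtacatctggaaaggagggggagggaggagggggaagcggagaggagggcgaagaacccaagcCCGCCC

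At Zfp384, which encodes a zinc finger factor, the EoV5 and EoVP16 peaks had 249 and 248 fragments and the EoV5 summit lay 230 bp past the start. The window held 2 GC boxes and no T-box core. At Evx1, a homeobox gene of the posterior primitive streak, the heights were 100 and 64 fragments, the summit lay 7 bp before the start, and the window held 1 T-box core. The start of Fgf10, a ligand of FGF receptors in limb and lung buds, was covered by a peak of 77 and 51 fragments whose summit lay 943 bp upstream. The promoter of Itga5, the alpha chain of a fibronectin receptor, was covered by a wide peak of 65 and 38 fragments with its summit 778 bp upstream. The window shown for Aven, a regulator of cell death, held neither motif, and the peak over it had 232 and 45 fragments. Zfp384 and Aven thus had EoV5 heights near each other and EoVP16 heights far apart.

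Of 21230 promoter windows of coding genes (250 bases before to 50 after the start), 270 windows of 232 genes were overlapped by the sites. Each motif was searched on both strands, and a match is a description of letters. The GC box stood in 72.6% of these windows (95% interval 67.0 to 77.6) and in 46.2% of all windows. It stood in 70.1% (68.3 to 71.8) of windows under peaks found in EoVP16 and EoGFP but not BraGFP, so this share did not set the sites apart from GFP-listed ones. The T-box core stood in 17.4% (13.4 to 22.4) against 18.4% of all windows. The longer T-box site AGGTGTGA, which holds the core, stood in 1.85% (0.794 to 4.26) against 1.15%. The ETS letters CCGGAAG stood in 12.6% (9.15 to 17.1), against 17.6% (16.2 to 19.1) under EoVP16 and EoGFP peaks and 11.6% of all windows. The NRF1 letters GCGCATGC stood in 1.85% (0.794 to 4.26), against 5.43% (4.62 to 6.37) under EoVP16 and EoGFP peaks and 3.51% of all windows. CCAAT stood in 31.1% (25.9 to 36.9), against 39.2% (37.3 to 41.1) and 38.2%, and TGACGTCA, the cAMP response element, in 2.22%, against 2.89% and 2.24%. Median GC content was 65.3% under the sites, 62.3% under EoVP16 and EoGFP peaks and 56.3% over all windows. The intervals of the sites and of the EoVP16 and EoGFP peaks overlapped for the GC box and ETS letters, and did not overlap for CCAAT and NRF1. NRF1 stood in only 5 windows under the sites. For CCAAT the sites' interval did overlap those of EoVP16 and BraGFP peaks, 34.2% (28.3 to 40.7), and of peaks in all 4 lists, 38.3% (36.7 to 40.0). For ETS and NRF1 it overlapped neither. The 270 windows lay under 219 sites and are not independent, so the intervals may be too narrow and no difference was tested.

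The sites were mostly low in EoV5. Their median EoV5 height was 81 fragments (quartiles 69 and 106), close to the 79 of EoV5 peaks found in no other list and below the 129 of peaks found in EoVP16 and EoGFP without BraGFP. The median was 96 for peaks in EoVP16 and BraGFP without EoGFP and 112 for peaks in all 4 lists. In EoVP16 their median was 48 fragments (quartiles 41 and 61), against 63, 74 and 83 in those classes in the same order. Near the lower limits, 903 sites (29.1%) had at most 70 EoV5 fragments and 752 (24.2%) at most 40 EoVP16 fragments. The median fold enrichment that the authors' lists give was 11.6 in EoV5 and 8.16 in EoVP16. Median peak width was 691 bp, against 1050 bp for EoVP16 and EoGFP peaks and 571 bp for EoV5 peaks in no other list.

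**Figure D1:**
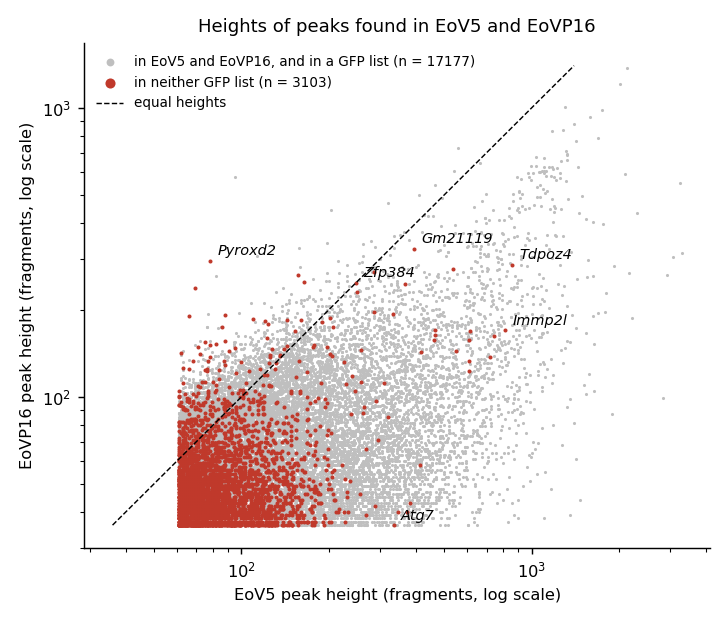
Height in EoV5 (x axis, fragments, log scale) against height in EoVP16 (y axis, fragments, log scale) for the 20280 EoV5 peaks that overlap EoVP16, each point a peak. The 3103 sites in neither GFP list (red) crowd the lower left corner, with a few tall ones labelled by their nearest gene, while the peaks also in a GFP list (grey) reach higher in both lists.

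Absence from the GFP lists went with height in both lists. Of the 20280 EoV5 peaks that overlapped EoVP16, 15.3% (14.8 to 15.8) lay in neither GFP list, against 58.1% (57.4 to 58.8) of the EoV5 peaks without EoVP16 and 35.4% of all EoV5 peaks. Among 10 equal classes by EoV5 height, in the lowest (61 to 67 fragments) the share was 30.8% (28.8 to 32.9), and in the highest (343 to 3296) it was 0.986% (0.639 to 1.52), or 20 of 2028 peaks. By EoVP16 height it went from 39.3% (37.2 to 41.5) in the lowest class to 3.45% (2.74 to 4.34) in the last but one and 3.75% (3.00 to 4.67) in the highest. The intervals of the last 2 EoVP16 classes overlapped, and the highest class, of 124 fragments or more, held 76 sites. Restricting the count to the taller 50% of EoV5 or of EoVP16 gave 8.02% and 7.90%.

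**Figure D2:**
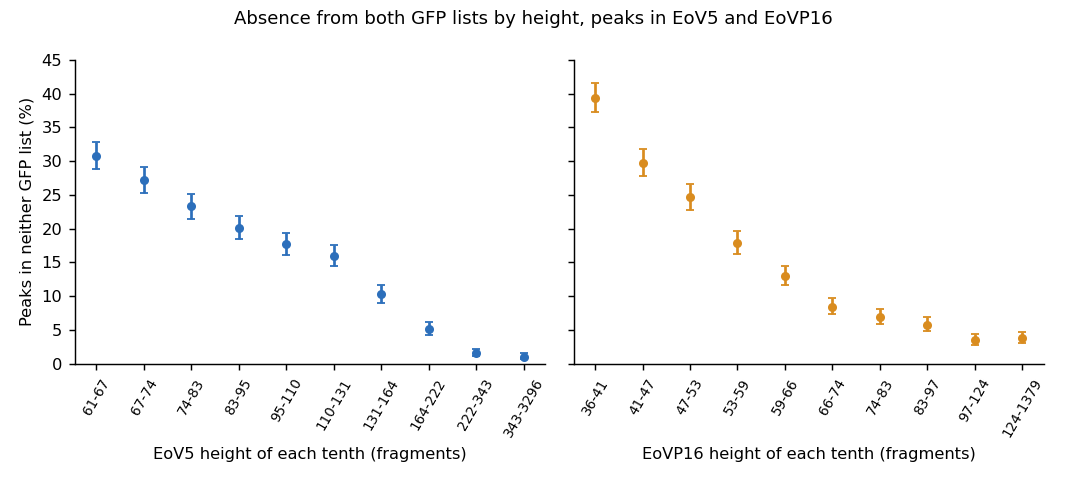
Share of EoV5 peaks in EoVP16 that lie in neither GFP list (y axis, percent), by class of EoV5 height (left) and of EoVP16 height (right), 10 classes each, with 2028 peaks per point and 95% Wilson intervals as bars. The share drops from 30.8% to 0.986% with EoV5 height and from 39.3% to 3.75% with EoVP16 height.

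Within a site, the positions of the EoV5 and EoVP16 peaks were close while their heights were nearly unrelated in rank. The summits were a median of 26 bp apart (quartiles 11 and 54), the same median as for peaks in EoVP16 and EoGFP, and 85.4% of sites had summits within 100 bp. The ratio of EoVP16 to EoV5 height had a median of 0.593 and ran from 0.107 to 3.79, and it was above 1 in 247 sites (7.96%), a count that depends on the unknown depths of both libraries. Spearman's rho between the 2 heights was 0.078 over the 3103 sites, which all share the same 2 libraries and the same lower limits. It was 0.208 over EoVP16 and EoGFP peaks, 0.419 over peaks in all 4 lists and 0.633 over EoVP16 and BraGFP peaks. Heights covered a narrower range in the sites, with EoV5 quartiles of 69 and 106. In those classes, in the same order, the quartiles were 84 and 225, 82 and 188, and 71 and 154. The values of rho are thus not directly comparable, and how far the range bears on them was not tested. With overlap counted only where it covered 50% of the EoV5 peak, rho over the sites was 0.273. No p is given, since peaks of the same 2 libraries are not independent.

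The tallest site in EoV5 had 857 fragments (801 to 916) and lay at chr3:93793614-93794734, 2.22 kb from Tdpoz4, a gene of a multi-copy family of speckle-type POZ proteins. It had 287 fragments in EoVP16 (255 to 322), and the nearest listed GFP peaks were a BraGFP peak 30.4 kb away and an EoGFP peak 158 kb away. Inside Immp2l, which encodes a mitochondrial inner membrane peptidase subunit, chr12:41716474-41717660 had 810 fragments in EoV5 and 170 in EoVP16, with summits 1 bp apart. A site 148 kb from Mycn, a MYC family factor, at chr12:12786405-12789033, had 742 and 163 fragments. Sites of 608 to 613 EoV5 fragments lay near Pirt, inside Mertk, a receptor kinase that takes part in clearing dead cells, near Psd3 and inside Nxph2. The nearest genes of the other 3 of the tallest 10 were Gm4791 (720 fragments, 85.8 kb away), Dnajb9 (549, 8.43 kb) and Rab11fip1 (535, 0.486 kb). All 10 stood in the highest class of EoV5 height, where 0.986% of peaks in EoVP16 were absent from both GFP lists. Their ratios of EoVP16 to EoV5 height ran from 0.190 to 0.335, save 0.518 at Rab11fip1.

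Other sites were tall in EoVP16. The highest, 326 fragments (292 to 363), lay inside Gm21119 on chromosome 8 with 393 EoV5 fragments, in the block of high local background described below. The sites near Gm40363 and Gm40365 on chromosome 6, of 265 and 249 EoVP16 fragments, also had a high local background, 22.1 and 18.0 fragments in EoV5. A site 26.4 kb from Pyroxd2, at chr19:42699142-42699736, had 296 EoVP16 fragments (263 to 332) and 78 in EoV5 (61.7 to 97.3), the highest ratio of all sites. Inside Aven, chr2:112586576-112587282 had 239 and 69 fragments, a ratio of 3.46, and its EoGFP neighbour was 1634 bp away. The site 68.7 kb from Arrdc4, an arrestin-domain gene, had 191 and 66 fragments with summits 9 bp apart. The high ratios of 2.29 and 2.18 belonged to sites 13.1 kb from Crh and 274 kb from Prr16. They joined EoV5 and EoVP16 summits 1407 and 1147 bp apart, so the 2 heights there belong to different points. EoGFP peaks lay 443 and 217 bp from these sites. Where the ratio was lowest, the EoV5 peak was tall and EoVP16 near its lower limit: inside Atg7, an enzyme of autophagosome formation, chr6:114816522-114817577 had 335 EoV5 and 36 EoVP16 fragments. Ratios of 0.108, 0.113 and 0.141 belonged to sites whose nearest genes were Dad1, Hgf, which encodes hepatocyte growth factor, and Ppp4r4. These sites lay 662 kb from Dad1, 39.1 kb from Hgf and inside Ppp4r4.

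By median gap, the sites lay about as far from listed EoGFP peaks as EoV5 peaks in no other list, and somewhat nearer to BraGFP peaks. The median gap was 19617 bp to the nearest EoGFP peak and 23167 bp to the nearest BraGFP peak, against 20206 and 27126 bp for EoV5 peaks in no other list. A GFP-list peak lay within 1 kb of 250 sites (8.06%, 7.15 to 9.07), within 10 kb of 46.2% and within 50 kb of 84.9%. For EoV5 peaks in no other list the shares were 6.51% (6.06 to 7.00), 44.5% and 83.9%. At short range the sites lay nearer to EoGFP too. An EoGFP peak lay within 0.5 kb of 2.96% of sites (2.42 to 3.62) and of 1.95% (1.70 to 2.23) of EoV5 peaks in no other list. At the edge of the rule, 6 sites had a GFP-list peak within 100 bp, the closest at 35 bp, with a median EoV5 height of 82 fragments. On the other side, 2 peaks were kept out by an overlap of at most 100 bp, with a median height of 92. Near misses within 100 bp were thus few on either side of the rule, while 135 sites (4.35%) had a GFP-list peak within 0.5 kb. Longer partial overlaps with GFP-list peaks kept out more peaks, as the higher number of sites under a stricter overlap rule shows. Widening the GFP peaks by 1000 bp on each side left 2853 of the 3103.

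**Figure D3:**
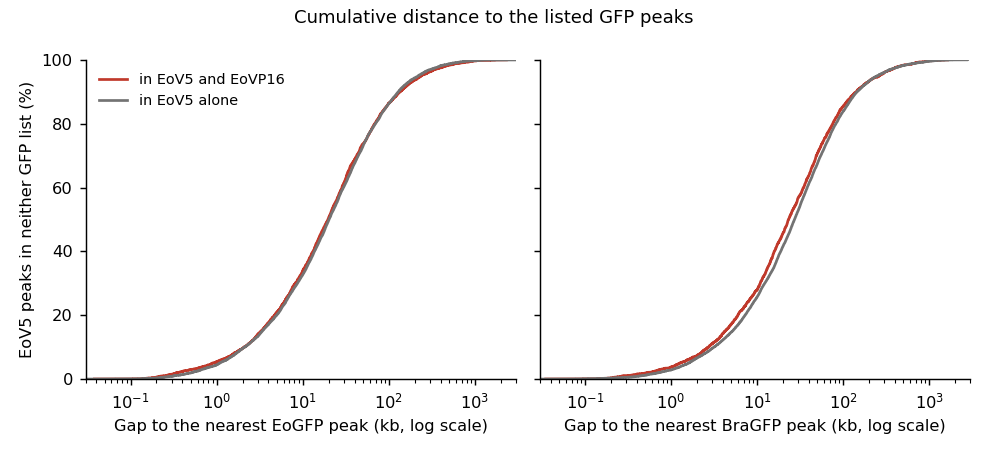
Cumulative share of EoV5 peaks in neither GFP list (y axis, percent) by the gap to the nearest EoGFP peak (left) and BraGFP peak (right), in kb on a log scale. The 3103 sites also in EoVP16 (red) and the 10408 peaks in EoV5 alone (grey) have medians of 19617 and 20206 bp to EoGFP, where the curves nearly coincide, and of 23167 and 27126 bp to BraGFP, where the sites lie slightly nearer.

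The names of the peaks in the GFP lists carry numbers. In both GFP lists the numbers rose along each chromosome and had gaps, reaching 230846 in EoGFP for 30129 listed peaks and 129722 in BraGFP for 27588. Between the 2 EoGFP peaks that flank a site, a median of 12 numbers were missing, and 0 of 3094 sites lay between consecutive numbers, which allows a share of up to 0.097%. In BraGFP a median of 7 numbers were missing, and 60 of 3098 sites (1.94%, 1.51 to 2.48) lay between consecutive numbers. For EoV5 peaks in no other list, 2 of 10390 (0.0192%) lay between consecutive EoGFP numbers and 434 (4.18%, 3.81 to 4.58) between consecutive BraGFP numbers. The flanking listed peaks were a median of 104 kb apart in EoGFP and 128 kb in BraGFP, so a missing number need not lie at the site. At the 60 sites the BraGFP numbering had no missing entry. Absence from EoGFP at every site, and from BraGFP at the others, is absence above the stated minimum, and a lower peak there was not tested.

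Fewer sites lay at gene ends than peaks of the EoVP16 list that were also in a GFP list, and more than EoV5 peaks outside the EoVP16 list. Of the sites, 287 had their midpoint at most 1 kb from the start or end of a coding gene, or 9.25% (8.28 to 10.3), as had 16.1% of all EoV5 peaks. The share was 23.2% for peaks in EoVP16 and EoGFP without BraGFP, a difference of -14.0 percentage points (-15.2 to -12.6). It was 23.3% for peaks in EoVP16 and BraGFP without EoGFP and 45.7% for peaks in all 4 lists. EoV5 peaks in no other list had 2.25%, so the sites were 7.00 points (5.99 to 8.10) above them. GFP-listed peaks outside EoVP16 were also below the sites, with 3.65% (3.21 to 4.14) for EoGFP only, 3.87% (2.57 to 5.79) for BraGFP only and 4.21% (2.97 to 5.95) for both. A further 40.4% of sites lay elsewhere inside a coding gene and 50.3% outside. The gene table holds no exons, so exon, intron and UTR were not assigned.

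The difference from EoVP16 and EoGFP peaks held in the 3 lower height classes of EoV5 and not in the highest. Among peaks of 61 to 75 fragments, 13.1% of sites and 51.9% of EoVP16 and EoGFP peaks lay at gene ends, a difference of -38.8 points (-41.7 to -35.7). It was -32.0 (-34.6 to -29.2) at 75 to 99 fragments and -13.9 (-16.0 to -11.5) at 99 to 156. Above 156 fragments the shares were 8.38% of 191 sites and 6.12% of 4247 peaks, a difference of 2.25 points whose interval of -0.991 to 7.10 holds 0. In classes of EoV5 width the difference ran from -2.59 to -11.5 points, and the widest sites, over 1247 bp, lay at gene ends in 29.3% of cases. In classes of EoVP16 height it ran from -6.13 to -17.4 points. Against EoV5 peaks in no other list the sites were higher in each height class, by 3.60 to 10.5 points. By width that gap was 0.992 points (0.0498 to 2.22) in the narrowest class, which held 1070 sites, and 24.8 (20.2 to 29.4) in the widest. The value depended on the overlap rule: with 50% of the EoV5 peak required to be covered, 20.4% of the sites lay at gene ends and the difference from EoVP16 and EoGFP peaks was -4.35 points (-5.88 to -2.78), while that from EoV5 peaks in no other list was 17.6 (16.3 to 18.9). In the taller 50% of sites the difference from EoVP16 and EoGFP peaks was -8.17 points (-9.57 to -6.60).

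**Figure D4:**
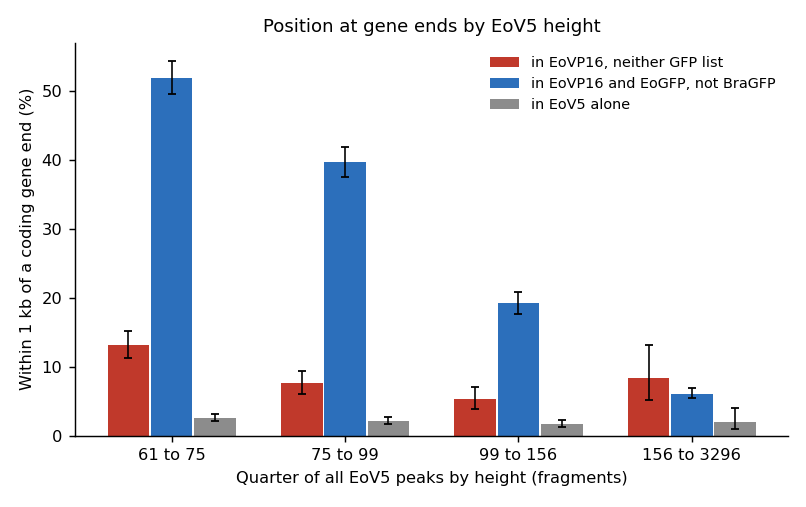
Share of peaks within 1 kb of an end of a coding gene (bars, y axis, percent) in 4 equal classes of all EoV5 peaks by height (x axis, fragments), with 95% Wilson intervals as error bars. Sites in EoVP16 and neither GFP list (red) stay between 5.28% and 13.1%, while peaks in EoVP16 and EoGFP without BraGFP (blue) go from 51.9% to 6.12% and peaks in EoV5 alone (grey) stay between 1.68% and 2.58%.

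Sites at gene ends looked different from the others. Their median EoV5 height was 74 fragments against 80 inside genes and 84 outside, while their median EoVP16 height was 55 against 47 and 48. They were also wider, with a median of 1197 bp against 691 and 641 bp, and their median ratio of EoVP16 to EoV5 height was 0.750 against 0.588 and 0.575. By annotated starts, which cover no gene of chromosome 18 here, 221 of 3015 sites (7.33%, 6.45 to 8.32) had their summit within 1 kb of a coding start, against 19.8% (19.0 to 20.6) of EoVP16 and EoGFP peaks. Of the 221, 97 summits lay upstream of the start and 124 at or past it, and 131 were within 250 bp.

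The X chromosome held more of the sites than its share of peaks. Of the EoV5 peaks in EoVP16, 81 of 309 on X were sites (26.2%) against 3020 of 19961 on autosomes (15.1%), a difference of 11.1 points (6.47 to 16.3). EoV5 peaks were of equal height there, with a median of 99 fragments on X and on autosomes, yet 45.9% of the X peaks and 64.9% of the autosomal ones were in a GFP list. The X difference was 16.4 points (3.69 to 29.7), 24.4 (12.5 to 37.0) and 25.9 (14.6 to 38.4) in the 3 lower height classes and 0.809 (-1.36 to 5.53) in the highest. X held 1.67% of EoV5 peaks, 1.52% of EoVP16, 1.11% of EoGFP and 1.30% of BraGFP peaks. Among autosomes the share of EoV5 peaks that were sites ran from 6.02% on chromosome 11 to 9.51% on chromosome 14, and on X it was 12.7% (10.3 to 15.5). Chromosome Y held 2 sites among 10 EoV5 peaks.

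A block of chromosome 8 held sites with a high local background. Height plus 1, divided by the deposited fold, was taken as a measure of local background, whose lowest value in EoV5 was 7.01 fragments. It was over 2 times that value in 35 sites (1.13%, 0.812 to 1.56), in 1 of 10474 EoVP16 and EoGFP peaks, and in 6 of 742 EoVP16 and BraGFP peaks (0.809%, 0.371 to 1.75), whose interval overlaps that of the sites. It was over 2 times that value in 3 of 568 BraGFP-only peaks (0.528%, 0.180 to 1.54). Of the 35, 22 lay at chr8:19732605-20831923, a region of 1099 kb with 31 EoV5, 70 EoVP16, 0 EoGFP and 1 BraGFP peaks. Heights there were 62 to 393 fragments in EoV5 with a fold of 2.03 to 14.0. Gm40469, the gene with the most sites, had 7 within 50 kb and 0 once sites of high background were left out, and Gm21119 went from 4 to 0. Whether copies of this sequence share reads was not tested. Leaving out the 35 changed the share at gene ends from 9.25% to 9.26%.

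Sites were spread over many genes. Of 21887 coding genes, 4169 (19.0%) had a site within 50 kb, 3477 of them only 1 and 112 at least 3. A GFP-list peak was within 50 kb of 3994 of the 4169, so absence at the site did not mean absence from the gene. The other 175 genes are 5.63% (4.87 to 6.50) of the 3109 coding genes with no GFP-list peak in reach, which are shorter, with a median of 3.77 kb against 19.8 kb. Another site lay within 50 kb of 21.2% of sites. After Gm40469, the genes with most sites were Btbd9, Gmds, Klf6 and Ptprd with 5 each. Klf6, a Krüppel-like zinc finger factor, spans only 8.90 kb, against 367, 519 and 2271 kb for the others.

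Around Klf6 the 5 sites had EoV5 heights of 105, 65, 76, 95 and 75 fragments and EoVP16 heights of 53, 69, 125, 81 and 46, in order along chromosome 13. The ratio of EoVP16 to EoV5 height was highest at chr13:5825968-5826624 and chr13:5844817-5845751, with 1.06 and 1.64 against the median of 0.593 over all sites. In the latter the summits were 258 bp apart. The site inside the gene, chr13:5864151-5864818, lay 1501 bp from an EoGFP peak. Klf6 thus had sites on both sides and inside, beside 3 EoGFP and 2 BraGFP peaks within 50 kb.

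The developmental lists were compared with all genes as counts. Of 189 distinct genes of 14 developmental lists and the A2lox locus list, 58 (30.7%, 24.6 to 37.6) had a site within 50 kb, against the 19.0% of all coding genes. It was 5 of 36 (13.9%, 6.08 to 28.7) for ribosomal protein and proteasome genes and 5 of 45 (11.1%, 4.84 to 23.5) for genes of hepatocytes, skeletal muscle and lymphocytes. Developmental genes also had more EoV5 peaks in reach, a median of 4 against 3 for all coding genes. Per EoV5 peak in reach, sites were 8.56% for the developmental genes, 4.69% for the housekeeping genes, 4.20% for the other cell types and 7.26% for all coding genes. The excess by gene was thus smaller when counted per EoV5 peak. The median gene of each list had 0 sites, the same as over all genes, save the Wnt list with a median of 0.5, and a peak near several genes was counted for each.

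**Figure D5:**
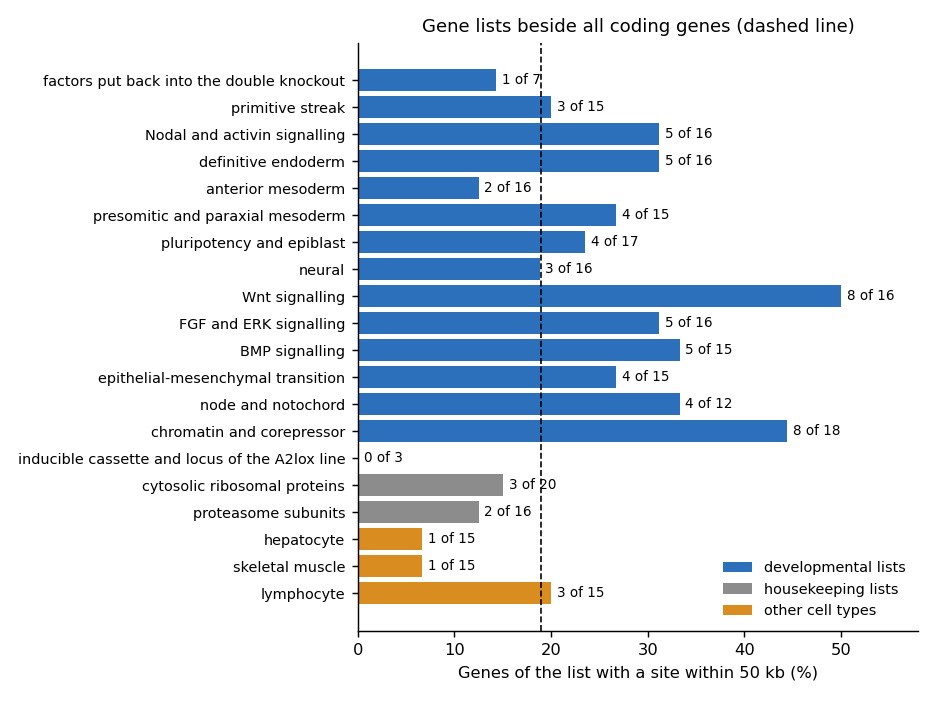
Share of the genes of each list with a site within 50 kb (x axis, percent), with the count beside each bar, for developmental lists (blue), housekeeping lists (grey) and other cell types (orange). The dashed line is the 19.0% of all coding genes, above which the Wnt list (8 of 16) and the chromatin list (8 of 18) reach furthest.

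Several signalling genes had more than 1 site. In the FGF list, 5 of 16 genes had a site, against 19.0% of all coding genes. The 10 sites made up 15.4% of the EoV5 peaks in reach, against 7.26% over all coding genes. Fgf10 had 4 of its 6 EoV5 peaks among the sites, with EoV5 heights of 77, 197, 154 and 107 fragments and EoVP16 heights of 51, 95, 49 and 39. The tallest of these, chr13:118761160-118761801, lay inside the gene, 1724 bp from an EoGFP peak. Fgfr2, an FGF receptor, had 3 sites, and the one at chr7:130118559-130119473 had 77 EoV5 and 101 EoVP16 fragments, a ratio of 1.31 against the median of 0.593 over all sites. Dusp6, a phosphatase that damps ERK signalling, Spry4 and Etv5 had 1 each.

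In the BMP list, 5 of 15 genes had a site, against 19.0% of all coding genes. Per EoV5 peak in reach the sites were 10.8%, against 7.26% over all coding genes. Bmp2, a BMP ligand, had 4 of its 6 EoV5 peaks among the sites. It thus gave 4 of the 8 sites of the list, so the 10.8% leaned on 1 gene. All 4 lay on the same side of Bmp2, 8.14 to 28.7 kb from it, with EoV5 heights of 130, 91, 140 and 87 fragments and EoVP16 heights of 54, 76, 92 and 41. No BraGFP peak lay within 50 kb of Bmp2, and the nearest EoGFP peak to any of the 4 was 733 bp away. Bmp4, Smad5, Smad6, an inhibitory SMAD, and Bambi, a decoy receptor, had 1 each. With 50% of the EoV5 peak required, the count of the BMP list was 10 of 15, when the share over all coding genes was 24.3%.

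In the Wnt list, 8 of 16 genes had a site: Wnt3a, Wnt11, Lef1, Tcf7, Tcf7l2, Ctnnb1, Fzd8 and Lgr5. The share of all coding genes was 19.0%, and per EoV5 peak in reach the sites were 10.5% for the Wnt list and 7.26% over all coding genes. These include ligands, receptors, nuclear TCF/LEF factors and Ctnnb1, which encodes beta-catenin. The 2 sites of Ctnnb1 had 71 and 69 EoV5 fragments and 36 and 66 EoVP16 fragments, 26.7 and 14.5 kb from the gene. The site at one end of Fzd8, a Frizzled receptor, was the only EoV5 peak within 50 kb, with 92 and 36 fragments. Of the Wnt genes, 4 had a site within 10 kb and 9 within 100 kb, where the shares over all coding genes were 8.82% and 29.9%.

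In the Nodal and activin list, the pathway that activin A switches on, 5 of 16 genes had a site, against 19.0% of all coding genes. Per EoV5 peak in reach the sites were 8.60%, against 7.26% over all coding genes. Smad3, an effector of the pathway, had 3 with EoV5 heights of 64, 73 and 82 fragments and EoVP16 heights of 63, 37 and 53, and 2 of them lay inside the gene. Cer1, a secreted Nodal and BMP antagonist of anterior endoderm, had 2, at chr4:82859132-82860021 with 86 and 67 fragments and at chr4:82872149-82872862 with 69 and 53. Foxh1, Smad2 and Dact2 had 1 each. Nodal, Lefty1 and Lefty2 had 0. All 3 sites of Smad3 and both of Cer1 were under the EoV5 median of the whole list, 99 fragments.

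Among lineage lists the share of genes with a site ran from 12.5% in anterior mesoderm to 33.3% in node and notochord, beside the 19.0% of all genes. Definitive endoderm had 5 of 16 (Sox17, Foxa3, Hnf4a, Cer1 and Otx2), primitive streak 3 of 15 (Mixl1, Wnt3a and Evx1), anterior mesoderm 2 of 16 (Hand2 and Tbx20) and paraxial mesoderm 4 of 15 (Tbx6, Lfng, Cyp26a1 and Pax3). Pluripotency and epiblast had 4 of 17, neural 3 of 16, node and notochord 4 of 12 and epithelial-mesenchymal transition 4 of 15. Per EoV5 peak in reach, only node and notochord, with 8.00%, was above the 7.26% over all coding genes. The share was 6.93% for definitive endoderm, 4.76% for primitive streak, 4.29% for anterior mesoderm and 7.02% for paraxial mesoderm. It was 6.35% for pluripotency and epiblast, 6.25% for neural and 5.80% for epithelial-mesenchymal transition. With 50% of the EoV5 peak covered, pluripotency and epiblast had 10 and primitive streak 5, when the share over all coding genes was 24.3%. The 2 sites of Otx2, a head organizer and neural factor, had 63 and 112 EoV5 fragments and 36 and 38 in EoVP16. Tbx20, a T-box gene of the heart, had 2 with 103 and 165 EoV5 fragments and 38 and 55 in EoVP16. Hand2, a bHLH factor of heart and limb, had its only EoV5 peak among the sites, with 65 and 60 fragments, 751 bp from a BraGFP peak.

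Among the 7 factors re-expressed in dKO cells in the study, only Mixl1 had a site within 50 kb. That is 14.3%, against 19.0% of all coding genes, and with 7 genes it does not set the factors apart. Per EoV5 peak in reach the sites were 3.03%, against 7.26% over all coding genes. The Mixl1 site lay at chr1:180714823-180715509, 18.1 kb from the gene. EoV5 had 107 fragments there (87.7 to 129), EoVP16 had 62, and the summits were 2 bp apart. An EoGFP peak lay 234 bp away, so with the GFP peaks widened by 500 bp Mixl1 had 0 sites. Eomes, T, Mesp1, Msgn1, Foxa2 and Six2 had 0 sites and 2 to 9 EoV5 peaks each. Hprt, next to which the inducible cassette of A2lox cells sits, and Phf6 and Col1a1 had 0 sites among 4 EoV5 peaks in reach.

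In the chromatin and corepressor list, 8 of 18 genes had 1 site each, against 19.0% of all coding genes: Tle1, Tle4, Eed, Jarid2, Kdm6b, Tet2, Tet3 and Smarca4. Per EoV5 peak in reach the sites were 9.30%, against 7.26% over all coding genes. Tle1 and Tle4 are Groucho-type corepressors, Eed and Jarid2 belong to Polycomb complex PRC2, Kdm6b removes the mark that PRC2 sets, Tet2 and Tet3 oxidise methylated cytosine and Smarca4 is a remodelling ATPase. The site near Eed had 118 EoV5 and 46 EoVP16 fragments and the one inside Jarid2 88 and 48. Each of the 8 genes had 2 to 11 EoGFP peaks within 50 kb. The gap from the site to the nearest EoGFP peak ran from 238 bp at Tle4 to 114 kb at Jarid2. At Tle4 the EoV5 and EoVP16 summits were 1131 bp apart. The Jarid2 site lay 87.3 kb from the nearest BraGFP peak. A site also overlapped 4 of 1005 annotated miRNA hairpins, Mir3058, Mir449c, Mir7229 and Mir330, with 69 to 105 EoV5 fragments, where 70 hairpins were overlapped by any EoV5 peak and 8.12% of EoV5 peaks were sites.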

How the data were processed

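Peak lists of EoV5 and EoVP16 (1 library each) and of EoGFP and BraGFP (1 list for 2 libraries each) were used. Samples were grouped by the titles. Per the submitters' processing notes, the tools included Bowtie2 2.3.4, MACS2 2.1.1.20160309.4 and bedtools 2.27.0, with the builds mm10 and GRCm38; their order and settings, and the control, are not given in the sources used here. Columns of the headerless V5 and VP16 files were read in the order MACS2 writes them. The deposited signal is the authors' pileup at the summit; its values are whole numbers, taken here as unscaled fragments. The deposited ratio is the fold enrichment over the caller's background. The authors' −log10 p and q values were not used.

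Peaks off the 21 assembled chromosomes (7, 6, 4 and 7 in EoV5, EoVP16, EoGFP and BraGFP) and repeated entries (46, 26, 12 and 4) were dropped. Overlap, gaps and partners were computed in Python 3.11.15 with numpy 2.4.6, pandas 2.3.3 and scipy 1.17.1 and tested on simulated data. The EoVP16 height of a site is that of its tallest overlapping peak, and 12 sites overlapped more than 1. Local background is (pileup + 1) divided by fold. Whether the caller also adds a constant to its background is not given in the sources used here, so the measure may include one. The 21887 coding genes come from a RefSeq gene table of GRCm38.p6, and a promoter window was matched for 17462 of them.

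The sites, gene lists and comparisons were chosen with earlier results of these data known. Named genes followed a rule: the genes nearest to the 10 tallest sites in each list and to the 5 highest and 5 lowest ratios, the 5 genes with most sites, the 7 factors put back, and the 3 genes with most sites of each developmental list, ties by symbol (74 genes in all). Not every gene under this rule is reported here. Other list genes were named after their values were seen. Alternatives covered the overlap rule, wider GFP peaks, autosomes, taller peaks, partner choice and gene windows. Leaving out sites of high local background was added after seeing the data. Among list names, Gt(ROSA)26Sor and Ighm had no match.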

Additional observations from a re-analysis of the deposited data

How the results depend on the processing

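With 1 list per construct no replicate could be left out. No paired analysis was possible because the replicate numbers of the GFP libraries are merged in 1 list each and no result comes from a test. Of 45 recomputed main values, 26 stayed within 1.5 times (counts) or within the 95% interval (shares and medians), and 19 moved out of it. Among all 835 values recomputed, only differences of shares and rho could change sign, and 0 did. The classes of height and width were not among these values. In the highest class of EoV5 height the gene end difference from EoVP16 and EoGFP peaks was 2.25 points (-0.991 to 7.10), against -14.0 over all sites. The number of sites ran from 2853 to 3779. The share of EoV5 and EoVP16 peaks in neither GFP list was 8.02% in the taller 50% of EoV5, 7.90% in the taller 50% of EoVP16, 20.5% with 50% of the EoV5 peak covered, 15.9% with the EoV5 summit inside, and 14.6% and 14.1% with GFP peaks widened by 500 and 1000 bp. With 50% covered, the median heights were 83 fragments in EoV5 and 53 in EoVP16. Midpoints in place of summits put the EoV5 and EoVP16 peaks 55 bp apart. The share of sites at gene ends was 21.6% at 5 kb, 6.76% in the taller 50% of sites, 20.4% with 50% covered and 11.5% with the summit inside. Coding genes with a site were 8.82% at 10 kb, 29.9% at 100 kb, 24.3% with 50% covered, 19.9% with the summit inside, and 18.1% and 17.4% with the widened GFP peaks. The windows differ by construction, and the cause of the other shifts was not tested. Of 120 list counts under other overlap rules, 111 stayed within 1.5 times. The lists hold neither depth nor GFP heights, which limits every statement on absence to the lists as cut by the authors.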
